A study of Rattus norvegicus with 2 samples.

Results

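The proteasome genes of cultured rat cortical neurons were compared between a control library and a PIWIL1 RNAi library. They were taken as every gene in either library whose rat symbol begins with Psma, Psmb, Psmc, Psmd, Psme, Psmf or Psmg followed by a digit, a rule that reads names and no measured value. It found 46 of the 9894 genes with a tag. Of these, 17 encode the core particle, 16 the regulatory particle, 5 the activators and the inhibitor, and 6 the assembly factors. The other 2, Psmc3ip and Psme3ip1, match by symbol but encode proteins that interact with a subunit, described in the files as a homologous-pairing protein and a nuclear protein named NIP30, and were kept apart. Psmd11, Psmg3, Psma8 and Psmb11 are not analysed here.

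The cells were dissociated from the somatosensory cortex of E16 Sprague-Dawley rats and electroporated with a control plasmid or with an RNAi plasmid against PIWIL1, a PIWI-family protein that binds small RNAs. RNA was taken after 48 h of culture in Neurobasal medium with serum and B27, and each group is 1 library. According to the methods, siRNAs were expressed from a pSuper vector, but the sources used here do not say which siRNA was sequenced, whether transfected cells were sorted, or how many embryos or cultures went into a library. Piwil1 is not analysed here, so its knockdown was not checked.

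The proteasome is the large protease that degrades proteins tagged with ubiquitin, and in neurons it takes part in growth and in remodelling of processes and synapses. Its core particle is a stack of rings in which alpha subunits gate the entrance and beta subunits hold the catalytic sites. The regulatory particle caps the core, where non-ATPase subunits bind and trim ubiquitin chains and a ring of ATPases unfolds the substrate and feeds it inward. Other activators can take the place of this cap, and dedicated chaperones assemble both particles without staying in them.

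Both libraries are digital gene expression libraries, in which a transcript is cut at CATG sites and each copy is read as a tag of 21 bases beginning with CATG. A gene's count is the sum of the copies of its tags, and its TPM is that count scaled to the clean tags of its library. No length enters the TPM, so values of different genes are set side by side here without ranking their levels. The control library held 1947600 copies on 9496 genes and the PIWIL1 RNAi library 1865913 copies on 9297 genes, and 3 copies were worth 0.886 and 0.908 TPM. Tags ending in 8 or more A made up 1.08% of the control copies and 2.72% of the PIWIL1 RNAi copies. All 10 neuronal markers on the list had a value, and their sum went from 4529 to 3981 TPM, but they did not move together. Stmn2 went from 2210 to 1719 TPM, and Tubb3, Map2, Snap25 and Neurod6 were also lower. Gap43 went from 788 to 1072 TPM, with 74.4% of its copies on tags ending in 8 or more A. Dcx, Rbfox3, Syt1 and Tbr1 were level or higher. The sum of 5 progenitor markers went from 968 to 1269 TPM, with Vim at 790 and 1127 TPM and the other 4 each lower in the PIWIL1 RNAi library. The lowest neuronal marker, Syt1, had 0 control copies and 5 PIWIL1 RNAi copies. Of the remaining lists, 3 of 4 astrocyte markers summed to 86.5 and 76.6 TPM, 4 of 4 oligodendrocyte-lineage markers to 5.32 and 5.75 TPM with Olig2 at 0 copies in the PIWIL1 RNAi library, 2 of 4 microglial markers to 48 and 53 copies, and 2 of 4 fibroblast and vessel markers, Col1a1 and Col3a1, to 482 and 453 TPM. The part of these shifts in the values of the proteasome genes was not tested, and in bulk RNA fewer cells of a type and less RNA per cell cannot be told apart.

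Of the 46 genes, 3 rose and 1 fell. Psma1, a gate-ring subunit of the core, rose 2.11-fold, Psmf1, which encodes the inhibitor PI31, rose 2.15-fold, and Psmd8, a subunit of the lid of the regulatory particle, rose 1.53-fold, while the ATPase Psmc5 fell to 0.466 of its control level. A gene was called when Fisher's exact test, two-sided and adjusted over all 9894 genes by the Benjamini-Hochberg method, gave an FDR of 0.05 or less and the log2 ratio of TPM (PIWIL1 RNAi over control) was at least 0.58 in size. The 3 genes called up are 6.52% of the 46 against a background of 2.96% of all genes, and the 1 called down is 2.17% against a background of 5.97%. Most proteasome genes were deeply counted. At a depth of 200 or more copies over the pair of libraries, 3225 genes were left, of which 4.81% were called up and 8.28% down, and the 37 proteasome genes among them included all 4 called ones. With 4 calls in all, neither share is read as particular to the proteasome. The test compares 2 libraries, not 2 conditions, since no variation between cultures enters it, and amplified copies are not independent molecules, so every interval below covers counting error only. When edgeR's exact test was given a biological coefficient of variation of 0.2, none of the 4 calls remained. RefSeq lists 46 pseudogene entries for 19 of the members, with 7 for Psmb3, 5 for Psma6 and 4 for Psme3, and tags shared with such copies could not be told apart here.

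The tags of the 4 called genes are shown because the calls turn on them. Capitals mark the last bases of each tag, either its final pair or its closing run of A, and the site is counted from the 3′ end of the transcript.
Psma1, site 1: catgaggatgcaggggcatAC
Psma1, site 2: catggtcttcgcgccttaaGA
Psma1, site 3: catgtctgaatttatgcagTG
Psmc5, site 1: catgtccatcaagaagcttTG
Psmc5, site 3: catgtatgctctgcgggaaCG
Psmc5, site 6: catgctccctccatcatctTC
Psmd8, site 2: catggattaaataatttttAA
Psmd8, site 3: catgtgtctcagtttttAAAA
Psmf1, site 1: catgttgccgAAAAAAAAAAA
Psmf1, site 1, second form: catgttgccgatAAAAAAAAA
Psmf1, site 2: catgtgtttgcagacctgcTG

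Psma1 (NM_017278) had 217 copies, or 64.07 TPM, in the control library and 446 copies, or 135.01 TPM, after PIWIL1 RNAi, a log2 ratio of 1.08 (95% interval 0.84 to 1.32, Fisher's exact test, FDR 1.57e-19). The rise lay in 1 tag. The tag of site 1 went from 85 to 317 copies, whereas that of site 2 had 79 and 68 copies and that of site 3 had 40 and 42. All copies other than the site 1 tag numbered 132 and 129, so outside that tag the gene was level between the libraries.

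Psmc5 (NM_031149), one of the ATPases that ring the base of the cap, had 763 copies (225.28 TPM) in the control library and 347 copies (105.04 TPM) in the PIWIL1 RNAi library. Its log2 ratio was −1.10 (95% interval −1.29 to −0.92, Fisher's exact test, FDR 1.25e-30). The tag of site 1 went from 576 to 231 copies and that of site 3 from 82 to 32, while that of site 6 had 73 and 67 copies and that of site 2 had 9 and 13. The fall was thus carried by 2 tags, and the copies outside the site 1 tag, 187 and 116, gave a log2 ratio of −0.65.

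Psmd8 (NM_001100831) had 969 copies (286.11 TPM) in the control library and 1449 copies (438.64 TPM) after PIWIL1 RNAi, a log2 ratio of 0.62 (95% interval 0.50 to 0.74, Fisher's exact test, FDR 2.86e-25), just past the ratio threshold. Its 2 main tags moved alike, from 543 to 847 copies at site 2 and from 349 to 512 at site 3. The tag nearest the 3′ end went the other way, from 25 to 15 copies, and with the tags of that site alone the log2 ratio was −0.52 (Fisher's exact test, FDR 0.537).

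Psmf1 (NM_001101005) had 95 copies (28.05 TPM) in the control library and 199 copies (60.24 TPM) after PIWIL1 RNAi, a log2 ratio of 1.10 (95% interval 0.74 to 1.47, Fisher's exact test, FDR 3.05e-09). Of its copies, 67.3% were on tags ending in a run of 8 or more A. The tag ending in 11 A went from 40 to 130 copies and the tag ending in 9 A, which differs from it by A12T counted from the 5′ end of the first tag, from 6 to 22. The site 2 tag went from 33 to 14 copies and the site 5 tag from 8 to 15. Without the tags ending in 8 or more A, the log2 ratio of Psmf1 was −0.011, and the call was lost.

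**Figure D1:**
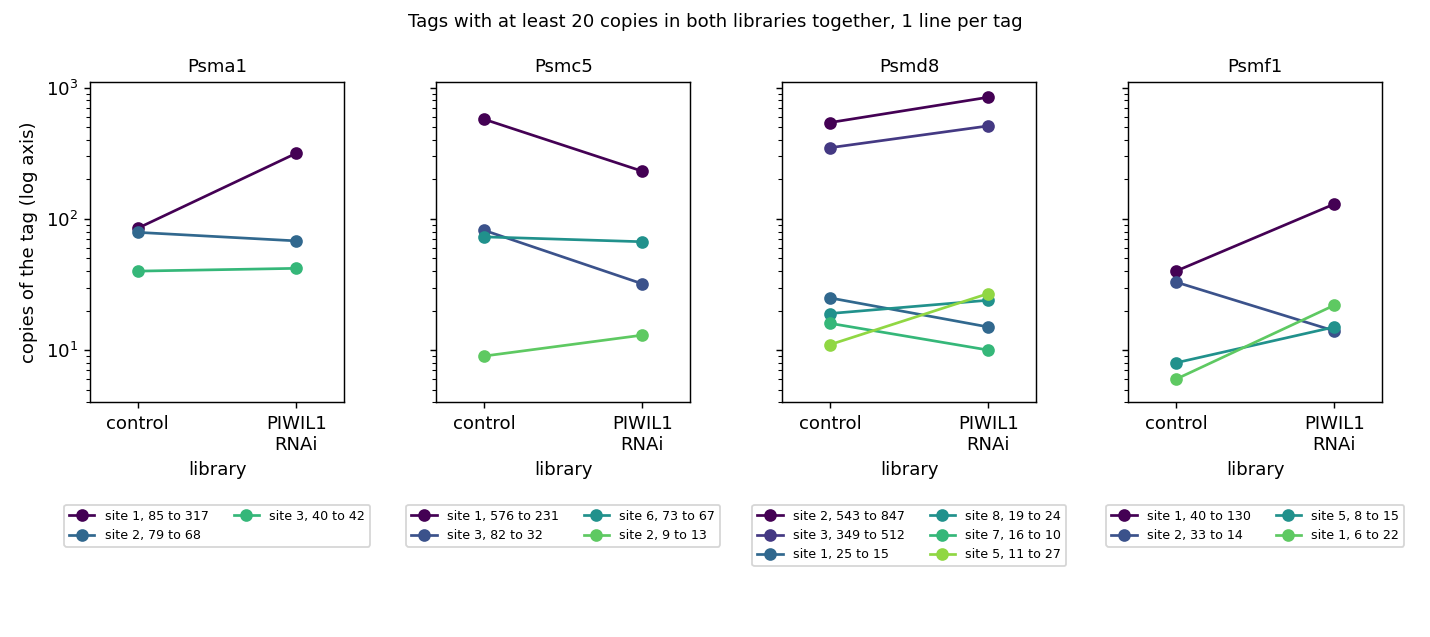
Copies of each tag of the 4 called genes in the control and the PIWIL1 RNAi library (vertical axis, copies on a log scale, 1 line per tag with 20 or more copies summed over the libraries, sites counted from the 3′ end). The rise of Psma1 lies in its site 1 tag, from 85 to 317 copies, and the tags of Psmc5, Psmd8 and Psmf1 go both up and down.

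The core and regulatory particles were close to each other. Core-particle genes summed to 10157 control and 9968 PIWIL1 RNAi copies, a log2 ratio of TPM of 0.009 (95% interval −0.031 to 0.049), and regulatory-particle genes to 7365 and 7513 copies, a log2 ratio of 0.06 (0.018 to 0.111). The regulatory values here hold only genes with a Psmc or Psmd symbol. Sem1 (1445 control and 1055 PIWIL1 RNAi copies) and Adrm1 (475 and 519) also belong to this particle but fall outside the symbol rule. The comparison was not made with them, and the interval above 0 is that of the sum without them. The regulatory particle made up 42.0% of the copies of both particles in the control library and 43.0% in the PIWIL1 RNAi library. The difference between their log2 ratios, which no scaling of the libraries can change, was 0.056 (conditional exact 95% interval −0.006 to 0.117), so it was not detectable at this depth. It was 0.15 (0.082 to 0.208) without Psmc5, 0.14 (0.081 to 0.208) without Psmb7, −0.05 (−0.115 to 0.015) without Psmd8 and 0.09 (0.029 to 0.153) without Psma1, and these genes were chosen after their values were seen. With only the tags of the site nearest the 3′ end the difference was −0.12, and after the correction for tag ends described below it was −0.001.

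Within each particle the genes lay on both sides of 0. In the core particle, 8 of 17 genes were higher and 9 lower in the PIWIL1 RNAi library, with a median log2 ratio of −0.029 and quartiles of −0.28 and 0.34. In the regulatory particle 8 of 16 were higher and 8 lower, with quartiles of −0.32 and 0.25. Over all 46 genes 23 were higher and 23 lower, and the median was 0.004, beside −0.085 over the 8899 genes listed in both libraries. For members with at least 200 copies the median was −0.017 with quartiles of −0.29 and 0.34, beside −0.045 with quartiles of −0.30 and 0.19 over all such genes. No member was listed in only 1 library, and 5 had fewer than 50 copies in all. By counting error alone, the interval lay above 0 for 12 genes, below 0 for 11 and across 0 for 23. The shares of all genes with such intervals are not given here. Deeper counts narrow an interval, so these counts are not read as particular to the proteasome.

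**Figure D2:**
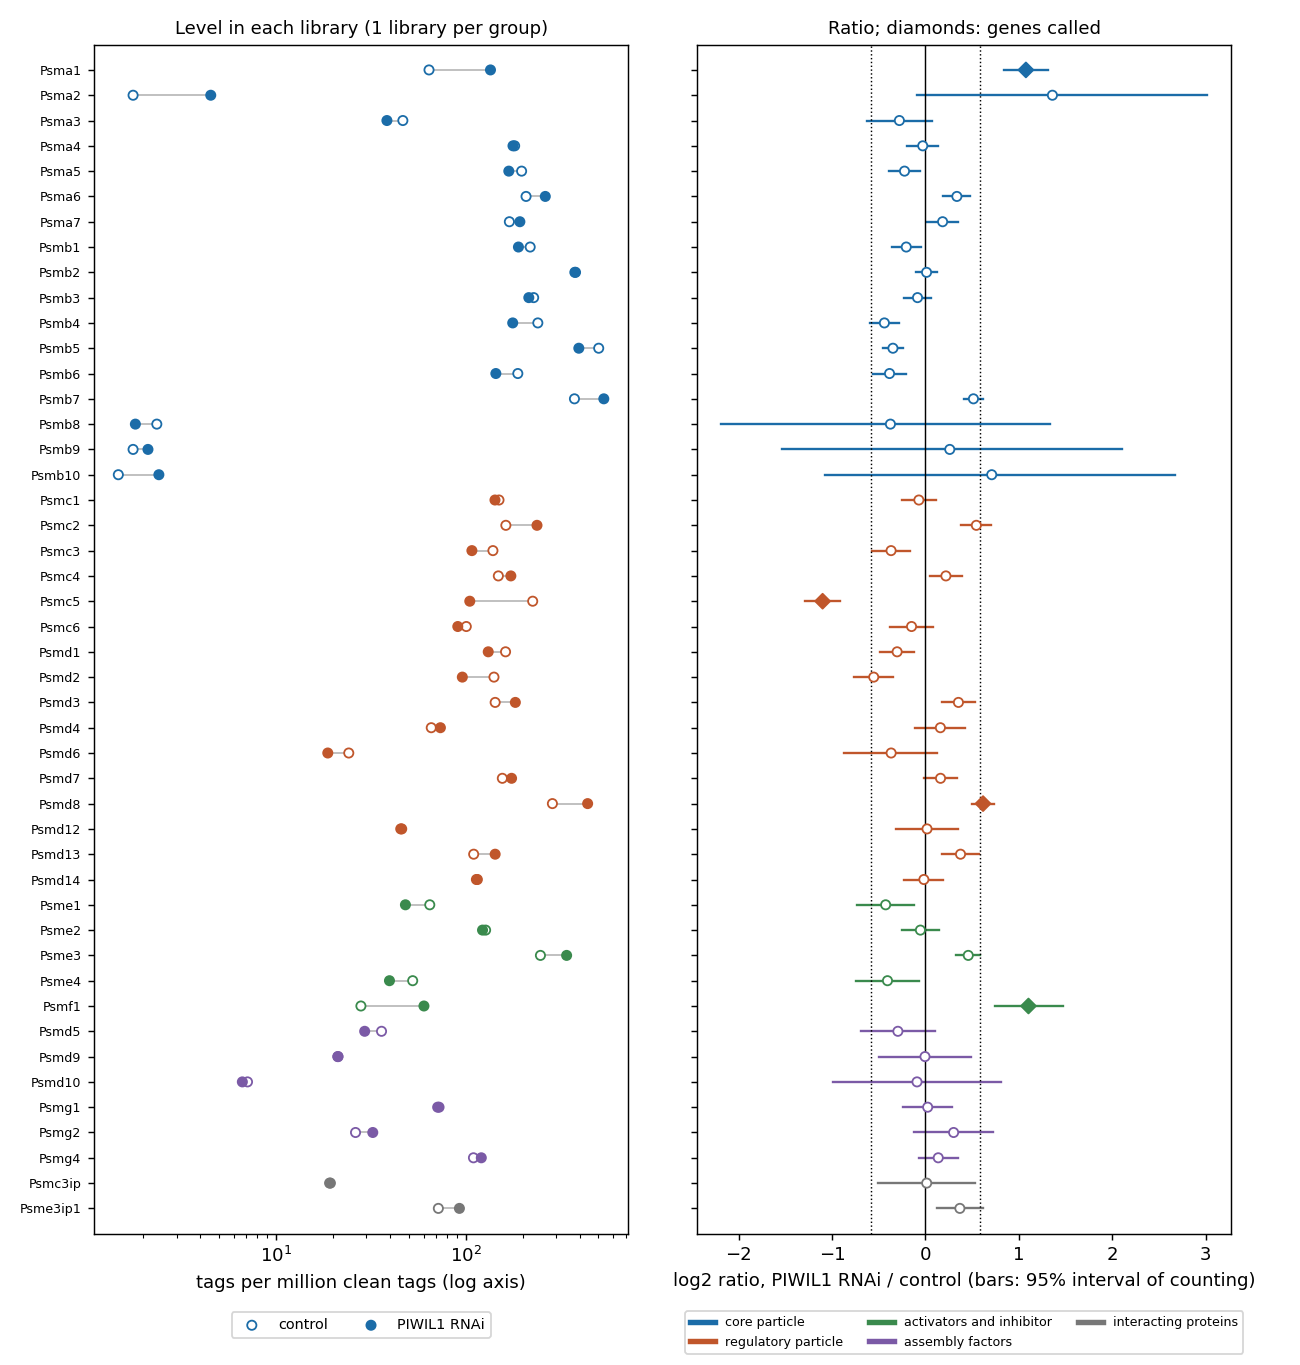
The 46 genes by class, with the level in each library on the left (TPM, log axis, open circles control, filled circles PIWIL1 RNAi) and the log2 ratio with its 95% counting interval on the right (dotted lines at 0.58 and −0.58, diamonds for called genes). The 3 genes called up and the 1 called down stand beside 23 genes whose interval holds 0, and the 3 induced beta subunits have the lowest counts and among the widest intervals.

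When the ratio threshold was set aside, 11 members (23.9%) were higher and 7 (15.2%) lower with Fisher's exact test giving an FDR up to 0.05, beside 7.14% and 9.53% of all genes. The shares are not on equal terms, since a deeper gene passes at a smaller ratio. Besides the called genes, the higher ones were Psma6, Psmb7, Psmc2, Psmc4, Psmd3, Psmd13, Psme3 and Psme3ip1, and the lower ones Psmb4, Psmb5, Psmb6, Psmc3, Psmd1 and Psmd2. By the ratio threshold alone, 5 members were past it upwards and 1 downwards, beside 9.92% and 18.3% of all genes listed in both libraries, and the 2 added members, Psma2 and Psmb10, had 21 and 13 copies in all.

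In the alpha ring, which gates the core, summed copies went from 2940 to 3235, a log2 ratio of 0.17 (95% interval 0.101 to 0.247). Without Psma1 it was 0.07 (−0.006 to 0.147). Among the other genes, named here after their values were seen, Psma6 went from 704 to 867 copies (log2 ratio 0.34, Fisher's exact test, FDR 1.45e-05), and Psma5 from 667 to 557 (−0.22). Psma7 had 575 and 637 copies, Psma4 had 613 and 586, and Psma3 had 158 and 127. Psma2 had 6 and 15 copies on 1 tag, with an interval from −0.09 to 3.01 that holds 0. Within Psma4 the tag of site 7 went from 5 to 35 copies while the tag of site 1, with 480 and 447, hardly moved.

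The beta ring, with the catalytic sites, summed to 7198 control and 6712 PIWIL1 RNAi copies, a log2 ratio of −0.065 (95% interval −0.113 to −0.017) that turned to 0.030 with edgeR's TMM factors and to 0.020 with DESeq2's size factors. None of its 7 genes was called, 2 were higher and 5 lower. The 3 constitutive catalytic subunits did not move together. Psmb5, the chymotrypsin-like subunit, had 1699 copies (501.64 TPM) and 1302 copies (394.14 TPM), a log2 ratio of −0.35 (−0.45 to −0.24, Fisher's exact test, FDR 3.75e-08). Psmb6, the caspase-like subunit, had 637 and 476 copies, a log2 ratio of −0.38 (−0.56 to −0.21, Fisher's exact test, FDR 0.000535). Psmb7, the trypsin-like subunit, had 1266 copies (373.80 TPM) and 1763 copies (533.70 TPM), a log2 ratio of 0.51 (0.41 to 0.62, Fisher's exact test, FDR 1.40e-22). The intervals of Psmb7 and of the other 2 catalytic subunits do not overlap, yet all 3 ratios are short of the threshold, and Psmb7 passed it with TMM factors (0.61) and with size factors (0.60).

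The tags that hold most copies of these subunits are shown with their last bases in capitals, since the direction of each gene follows them.
Psmb5, site 1: catgacaagtatacttcatCT
Psmb5, site 2: catgtgcgggaggatggctGG
Psmb6, site 1: catgaccaaggatgaatgtCT
Psmb7, site 1: catgcatttggctattgctCA
Psmb4, site 1: catgatcagtggctttgaaTG
The site 1 tag of Psmb5 went from 1345 to 1098 copies and its site 2 tag from 218 to 84. For Psmb7, 4 of 5 tags with at least 20 copies were higher, led by site 1 with 816 and 1190 copies. All 3 such tags of Psmb6 were lower, with 556 and 420 copies at site 1. Psmb4, a structural beta subunit and the lowest of the core genes with enough copies, had 812 and 584 copies, a log2 ratio of −0.44 (−0.60 to −0.28, Fisher's exact test, FDR 2.43e-06), and its site 1 tag went from 693 to 466 while its other copies numbered 119 and 118. Psmb1, Psmb2 and Psmb3 had log2 ratios of −0.21, 0.01 and −0.08.

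The induced beta subunits, which replace the constitutive catalytic ones in the immunoproteasome, were near the limit of detection. Psmb8 had 8 and 6 copies, Psmb9 had 6 and 7, and Psmb10 had 5 and 8. Their sum was 19 control and 21 PIWIL1 RNAi copies, a log2 ratio of 0.18 with a 95% interval from −0.79 to 1.16. A difference between the libraries was not detectable for them at this depth.

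The ATPases of the regulatory particle summed to 3136 and 2829 copies, a log2 ratio of −0.11 (95% interval −0.186 to −0.039), which was −0.018 with TMM factors and −0.028 with size factors, and 0.10 (0.019 to 0.183) without Psmc5. Next to Psmc5, Psmc2 had the largest ratio, with 551 and 784 copies and a log2 ratio of 0.54 (0.39 to 0.70, Fisher's exact test, FDR 3.11e-11), short of the threshold but past it with TMM factors (0.64) and size factors (0.63). Psmc3 had 471 and 356 copies (log2 ratio −0.37, Fisher's exact test, FDR 0.0071). Psmc4 had 503 and 571 copies (0.22, Fisher's exact test, FDR 0.0388), and every one of the 5 tags that reached 20 copies was higher. Psmc1, with 507 and 471 copies, and Psmc6, with 341 and 300, had intervals that hold 0. Of the 6 ATPases, which form a single ring, 2 were thus higher and 4 lower.

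Tags of the same ATPase transcript went apart. Those of Psmc2, Psmc3 and Psmc6 are shown with the last bases in capitals.
Psmc2, site 1: catgacatacaactgagccCC
Psmc2, site 2: catgctcgctcaatgagtgTG
Psmc3, site 1: catggagggcatcctggagGT
Psmc3, site 2: catgctagagctcctgaacCA
Psmc6, site 6: catgtataagcaacatAAAAA
Psmc6, site 6, second form: catgtataagcaacataatAA
For Psmc2, site 1 went from 405 to 655 copies and site 2 from 77 to 36. For Psmc3, site 1 went from 259 to 135 while site 2 had 196 copies in both libraries. The 2 Psmc6 tags, which differ by A19T, went from 114 to 163 and from 53 to 39.

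The non-ATPase subunits with a Psmd symbol summed to 4229 and 4684 copies, a log2 ratio of 0.18 (95% interval 0.123 to 0.244), and to 0.025 (−0.046 to 0.096) without Psmd8. Sem1 (1445 and 1055 copies), which was lower, and Adrm1 (475 and 519), which was higher, are outside this sum. The ratio is thus that of the Psmd genes only. The deubiquitinase Psmd14 had 390 and 376 copies (log2 ratio −0.02, −0.22 to 0.19). The ubiquitin receptor Psmd4 had 223 and 243 copies (0.16, −0.11 to 0.43), with its site 1 tag going from 82 to 128 and its site 5 tag from 49 to 28. The following genes are named after their values were seen. Psmd2, the large scaffold subunit, had 477 and 317 copies (−0.55, −0.76 to −0.35, Fisher's exact test, FDR 7.57e-06), and the difference lay in its site 1 tag, catggggaacgggcggagcTG, with 271 and 103 copies against 206 and 214 in its other tags. Psmd1, the other large scaffold subunit, had 549 and 434 copies (−0.30, Fisher's exact test, FDR 0.0221). Psmd3, a lid subunit, had 484 and 603 copies (0.35, Fisher's exact test, FDR 0.000244), and 7 of the 8 tags that reached 20 copies were higher. Psmd13, also of the lid, had 373 and 472 copies (0.38, Fisher's exact test, FDR 0.000738). The lid subunits Psmd6, Psmd7 and Psmd12 had intervals that hold 0.

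The activators and the inhibitor summed to 1761 and 2017 copies, a log2 ratio of 0.23 (95% interval 0.139 to 0.325), although 3 of the 5 genes were lower and the median was −0.054. Psme3, which encodes the nuclear activator PA28 gamma, had 838 and 1123 copies (0.46, 0.33 to 0.59, Fisher's exact test, FDR 6.74e-12), and without it the sum gave −0.010 (−0.144 to 0.124). Its site 1 tag, catgtcaagaaattattAAAA, went from 653 to 956 copies, and its site 2 tag, catgtgtttctcagttttcCT, from 107 to 68. Psme1, which forms the other PA28 with Psme2, had 219 and 159 copies (−0.43, −0.73 to −0.12, Fisher's exact test, FDR 0.0513). Psme2 had 431 and 405 copies (−0.05), and Psme4, which encodes PA200, had 178 and 131 (−0.41, Fisher's exact test, FDR 0.108), both named after their values were seen.

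None of the 6 assembly factors was called, and the interval of each held 0. They summed to 920 and 934 copies, a log2 ratio of 0.06 (95% interval −0.075 to 0.191). Psmg4, a chaperone of the alpha ring and the assembly factor with the most copies, had 372 and 399. Psmg2, which pairs with Psmg1, had 89 and 107 copies (log2 ratio 0.30, −0.12 to 0.72), the highest ratio of the class, and Psmd5, a chaperone of the ATPase ring, had 122 and 97 (−0.29, −0.69 to 0.10), the lowest. Psmg1, Psmd9 and Psmd10 had 241 and 239, 72 and 70, and 24 and 22 copies. Of the interacting proteins, Psmc3ip had 65 and 64 copies, and Psme3ip1 had 243 and 306 (0.37, 0.12 to 0.62, Fisher's exact test, FDR 0.0131).

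Pairs of classes inside a particle, compared after their values were seen, moved apart more than the particles did. The alpha ring went from 29.0% to 32.5% of the copies of both constitutive rings, a difference in log2 ratio of 0.24 (conditional exact 95% interval 0.152 to 0.326), of 0.14 (0.045 to 0.226) without Psma1, and of 0.40 (0.308 to 0.490) without Psmb7. The non-ATPase subunits went from 57.4% to 62.3% of the regulatory particle, Sem1 and Adrm1 again left out, a difference of 0.30 (0.201 to 0.392). It was not computed with them, and Sem1, at a log2 ratio of −0.42, went against it while Adrm1, at 0.16, was higher. The difference was 0.14 (0.035 to 0.240) without Psmd8, 0.08 (−0.019 to 0.184) without Psmc5 and −0.08 (−0.184 to 0.032) without both. These 2 genes were called on the same values, so leaving them out had to shrink the difference.

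The bases at the end of a tag went with its ratio in these libraries, over all genes. Tags with at least 20 copies had a median log2 ratio of −0.67 when they ended in TG or GT and −0.55 in GG, against 0.29 for a closing run of 4 A, 0.92 for 9 A and 1.49 for 11 A. Members of the proteasome held 322 tags, 166 of them with at least 20 copies, of which 80 were higher and 86 lower. Their 31 tags ending in TG, GT or GG had a median of −0.34, with 11 higher and 20 lower, beside −0.63 over all 2189 such tags. Their 9 tags ending in 3 or more A had a median of 0.55, with 6 higher and 3 lower, beside 0.47 over all 705. The remaining 126 tags, 63 higher and 63 lower, had a median of −0.004, beside −0.046. Of the 39 members with at least 2 tags of this depth, 32 had tags in both directions, 4 had all tags lower and 3, Psma7, Psmc4 and Psmg4, had all tags higher. The same shares over all genes are not given here, so these counts are not read as a trait of the proteasome.

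**Figure D3:**
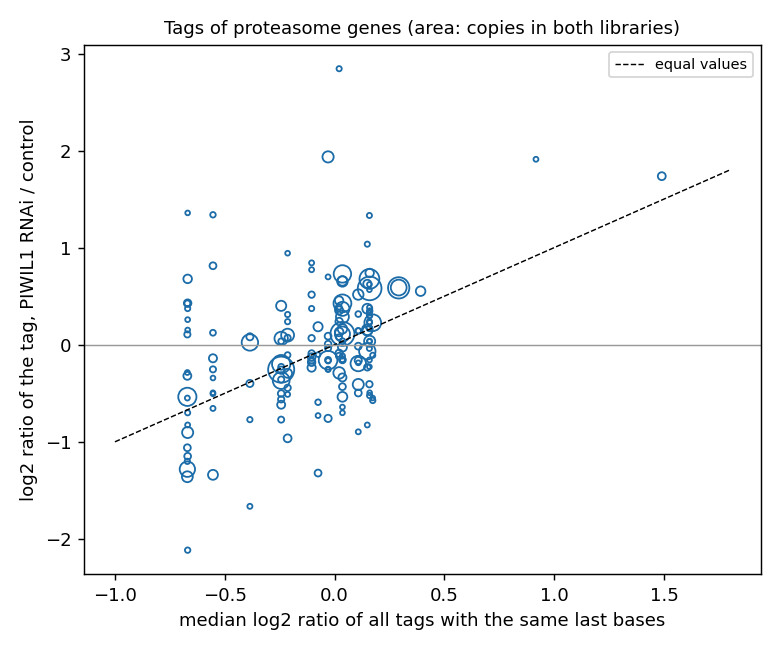
Each of the 166 proteasome tags with at least 20 copies, by the median log2 ratio of all tags with the same last bases (horizontal axis) and its own log2 ratio (vertical axis), with circle area growing with its copies and a dashed line at equal values. Tags ending in TG or GT stand at −0.67 on the horizontal axis and the 11-A tag of Psmf1 at 1.49, near the dashed line.

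Taking the median of each tag-end class, less the median of all tags, out of the copies changed which members were called. The medians were estimated on other genes. Psma1, whose site 1 tag ends in AC, a class with a median of −0.03, kept its call at a log2 ratio of 1.14. Psmc5, whose site 1 tag ends in TG, kept its call at −0.68 (Fisher's exact test, FDR 4.85e-11). The correction takes out only a difference of medians and not the spread within a class, and the 866 tags ending in TG had quartiles of −1.30 and −0.02. The site 1 tag of Psmc5, at −1.28, lies between these quartiles. Psmd8 went to 0.38 and Psmf1 to 0.28, and both lost the call. Psma2, with 21 copies on 1 tag ending in GT, was called up at 1.97. The corrected calls were 2 up and 1 down, beside 1.9% and 3.76% of all genes. The catalytic subunits moved closer together, with Psmb5 at −0.15, Psmb6 at −0.25 and Psmb7 at 0.33, and Psmb4 went to 0.04, Psmd2 to −0.23 and Psme3 to 0.13. Other members moved away from 0 without passing the ratio threshold. Psmd4 went to 0.54 (Fisher's exact test, FDR 0.000366), Psme1 to −0.55 (Fisher's exact test, FDR 0.0079), Psme4 to −0.54 (Fisher's exact test, FDR 0.0233) and Psmd1 to −0.42 (Fisher's exact test, FDR 0.00085). The activators and the inhibitor then summed to −0.04, and the core and regulatory particles both to 0.05. Per gene, the corrected median was −0.126 for the activators and the inhibitor, 0.055 for the core and −0.032 for the regulatory particle. Over the genes listed in both libraries it was −0.079.

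**Figure D4:**
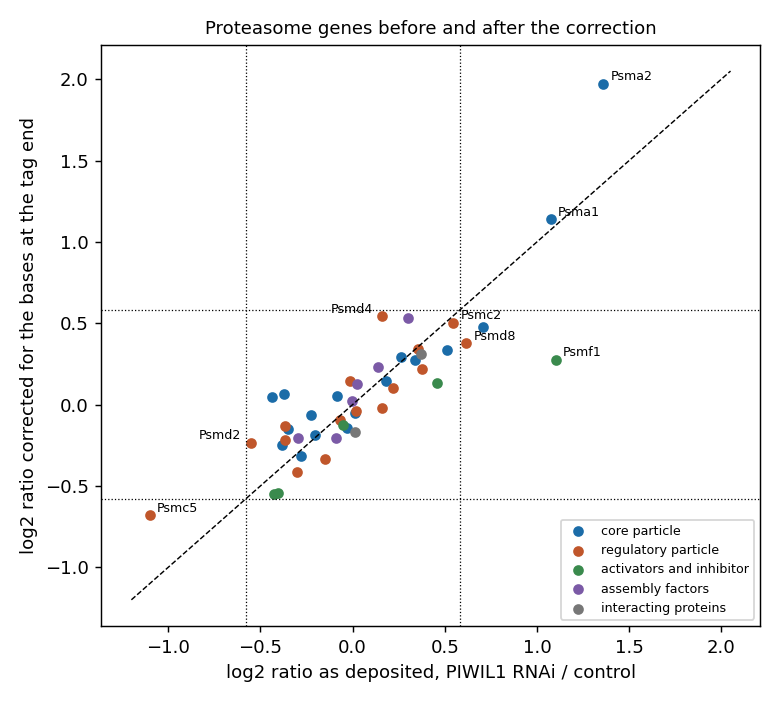
Log2 ratio of each of the 46 genes as deposited (horizontal axis) and after correction for the bases at the tag end (vertical axis), coloured by class, with dotted lines at 0.58 and −0.58 and a dashed line at equal values. Psma1 and Psmc5 stay beyond the thresholds at 1.14 and −0.68, Psmf1 and Psmd8 move inside them to 0.28 and 0.38, and Psma2 lies at 1.97.

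Genes that build, regulate or supply the proteasome were read from a fixed list of 28 names, of which 19 had a value and 9 are not analysed here. None was called up and 3 were called down, beside 2.96% and 5.97% of all genes, and the median log2 ratio was −0.18. Pomp, the maturation factor of the core particle, had 1575 and 1286 copies (−0.26, −0.36 to −0.15, Fisher's exact test, FDR 0.000312), with both tags that reached 20 copies lower. Rps27a, which encodes ubiquitin fused to a ribosomal protein, had 3312 and 1899 copies (−0.77, −0.85 to −0.68, Fisher's exact test, FDR 5.05e-71) on 1 main tag. Akirin2, which takes part in nuclear import of proteasomes, had 194 and 117 copies (−0.69, −1.04 to −0.36, Fisher's exact test, FDR 0.000879), although 2 of its 3 main tags were higher, and it went to −0.20 after the tag-end correction. Nfe2l2, a stress-response transcription factor, had 11 copies on 1 tag in the control library and was listed at 0 in the other, at least 3.58-fold lower when 3 copies per library are taken as the floor (Fisher's exact test, FDR 0.00916). The 95% counting interval of its log2 ratio has an upper limit of −1.29, a smaller difference than that floor gives. Named after their values were seen, Vcp, the segregase that hands substrates to the proteasome, had 3320 and 3970 copies (0.29), Sem1, the small lid subunit, 1445 and 1055 (−0.42), the ubiquitin receptor Adrm1 475 and 519 (0.16) and the deubiquitinase Usp14 a log2 ratio of −0.36.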

How the data were processed

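RNA of cultured E16 rat cortical neurons, 1 library per group, was profiled by tag sequencing. For each gene the authors deposited the count, the sum of the copies of its tags, which was not normalized, and the TPM, scaled by the authors to all clean tags of the library. The labels name build rn4, and the program that matched tags to genes is not given in the sources used here. No tag had fewer than 2 copies. Symbols came from RefSeq accessions, and Psmg1 from the file's description. With 1 library per group, no fit with residual error was possible, so counts were tested by Fisher's exact test against all other tags on genes, adjusted over 9894 genes, with the thresholds of the study, and log2 ratios were taken between TPM values. Intervals are exact (Clopper-Pearson, 95%). For the tag-end correction, each tag was put in a class by its closing pair of bases, or by its closing run where that held 3 or more A. Median log2 ratios (tags with at least 20 copies, 0.5 added) were estimated on other genes. The median of each class, less the median of all such tags, was taken out. Classes with fewer than 10 tags were left uncorrected. The code was tested on simulated counts.

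Named with values were the called members, the highest and lowest log2 ratio in each class among members with at least 50 copies, the member with the most copies in each class, the catalytic and induced beta subunits, the ATPases, Psmd4, Psmd14, called partner genes and Pomp. The values of 1 other gene of the partner list are not reported here. The members, lists and tests were chosen with earlier results of these data known. Alternatives were edgeR's TMM factors, DESeq2's size factors, the total of tags on genes, edgeR's exact test where the biological coefficient of variation (BCV) was set to 0.1, 0.2 or 0.4, removal of tags with a closing run of 8 or more A, the tag-end correction, the most copied tag only, 1 copy put back or added, at least 10 copies in both libraries, a log2 threshold of 1, and copies summed per symbol. Use of the tags nearest the 3′ end, and sums without single genes, were added after seeing the data. The tools were DESeq2 1.42.0 and edgeR 4.0.16 under R 4.3.3, and SciPy 1.17.1, pandas 2.3.3, NumPy 2.4.6 and Matplotlib 3.10.9 under Python 3.11.15.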

Additional observations from a re-analysis of the deposited data

How the results depend on the processing

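The main counts were 3 proteasome genes called up, 1 called down, and 3 partner genes called down. The genes called up numbered 5 with TMM factors and with size factors (Psmb7 and Psmc2 added), 9 with the most copied tag of each gene only, 8 with the tags nearest the 3′ end only, and 0 with edgeR's exact test at a BCV of 0.2 or 0.4. The genes called down numbered 3 with the most copied tag, 4 with the tags nearest the 3′ end, and 0 at a BCV of 0.2 or 0.4. Partner genes called down numbered 1 at a BCV of 0.1 or a log2 threshold of 1, and 0 at 0.2 or 0.4. The shares of all genes called under these alternatives are not given here, so the counts are not read as a result about the proteasome. The summed log2 ratio was 0.15 (TMM), 0.14 (size factors) and 0.088 (most copied tag) for all members. For the core particle it was 0.10 (TMM), 0.094 (size factors), 0.053 (tag ends corrected) and 0.054 (3′ tags). For the regulatory particle it was 0.16 (TMM), 0.15 (size factors) and −0.066 (3′ tags), which turned its direction. For the activators and the inhibitor it was 0.33 (TMM), 0.40 (most copied tag), 0.35 (3′ tags) and −0.039 (tag ends corrected), again a turn. Psmd8 turned to −0.52 with the 3′ tags and Psmf1 to −0.011 without tags ending in 8 or more A. Apart from the alternatives' own construction, the cause was not tested.

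With a BCV of 0.1, edgeR's exact test gave Psma1 an FDR of 0.000196, Psmc5 0.00123, Psmd8 0.0383 and Psmf1 0.00138, and at 0.2 their FDRs ran from 0.583 to 1. Nfe2l2 had an FDR of 0.0446 with 1 copy put back, 0.0492 at a BCV of 0.1 and 0.41 at 0.2. No paired analysis was possible because each group has 1 library. The depth limits the 3 induced beta subunits and Psma2, each with at most 15 copies in a library. Fisher's exact test takes no variation between cultures into account.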
